A study of Daphnia magna with 22 samples.

Results

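The 87 most abundant transcripts in grown females of Daphnia magna, a water flea, were chosen by their mean CPM over all 22 libraries. CPM is a row's count divided by the library's total, on the usual scale of that name, and the threshold was a mean of at least 2000. Only rows whose ID is a protein accession starting with KZ, and whose ID stands on at most 4 rows, were taken. The 87 rows are 0.594% of the 14657 rows and carry 86 distinct accessions, 78 of them members whose ID stands on a single row. Because these values chose the members, their level and their share of the counts are given as a description, with no test. The tests concern differences between clones and treatments.

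Each library came from the whole body of 1 female, without her freshly laid eggs, taken within a day of egg laying. The GB clone comes from a lake in London and the IL clone from a pond in Jerusalem, so each clone stands for a single isolate. Control females were fed 400000 algal cells per mL daily, and females under caloric restriction (CR) 100000 cells per mL from birth. The other groups kept the full diet and spent 2 h a day in 2.5 mM beta-hydroxybutyrate (BHB, a ketone body) or in nicotinamide mononucleotide at 0.1 mM (NMN, from which cells make NAD+), while control and CR females spent that time in plain medium. There were 3 females per clone for control, CR and BHB and 2 per clone for NMN. All groups were sampled at 1 age, whose value as printed in the design text is doubtful and is not given here. Libraries held 8503141 to 14353733 counts, and the tests covered the 4965 gene models that passed a filter on low counts, all 87 members among them.

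Daphnia filters algae from the water, moults through adult life and lays a new clutch after each moult. In a whole small crustacean, abundant messages are known to come from digestive gland, yolk-producing fat cells, muscle, cuticle and the machinery of translation and respiration, and several of these tissues work in step with the moult and egg cycle. A library is a closed sum, so that when 1 abundant message takes more of the reads, all others take less. The table pairs no accession with a gene name and none matched the RefSeq gene table, so no function, tissue or sequence is given to any member. Reads per transcript depend on its length, which was not used here, so the order of the members is one of reads and not of molecules. In whole-body RNA, fewer cells of a type and less RNA per cell cannot be told apart.

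Together the 87 members held 45.5% ± 3.29 of all counts (SD, n = 22), from 37.7% to 53.3% in single libraries. The 20 most abundant held 23.3% of the counts, more than all the other members together. The first, KZS03189, had a mean of 37966 CPM (3.80% of all counts), followed by KZS16921_1 with 28123 CPM. The suffix marks a row of an ID that stands on several rows. The next were KZS07197 with 16673, KZS21034 with 14660, KZS14409 with 12659, KZS03923 with 12235, KZS20604 with 11771 and KZS14154_1 with 11301 CPM. KZS16285 with 8914 and KZS17651 with 8197 CPM completed the first 10. The lowest members were KZS18354 with 2007 and KZS10162 with 2006 CPM, and the rows just below the threshold were KZS05884 and KZS08221, both with 1991 CPM. A single row over 2000 CPM, with 2463 CPM, was left out because its ID is a gene-model name and not a KZ accession.

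**Figure D1:**
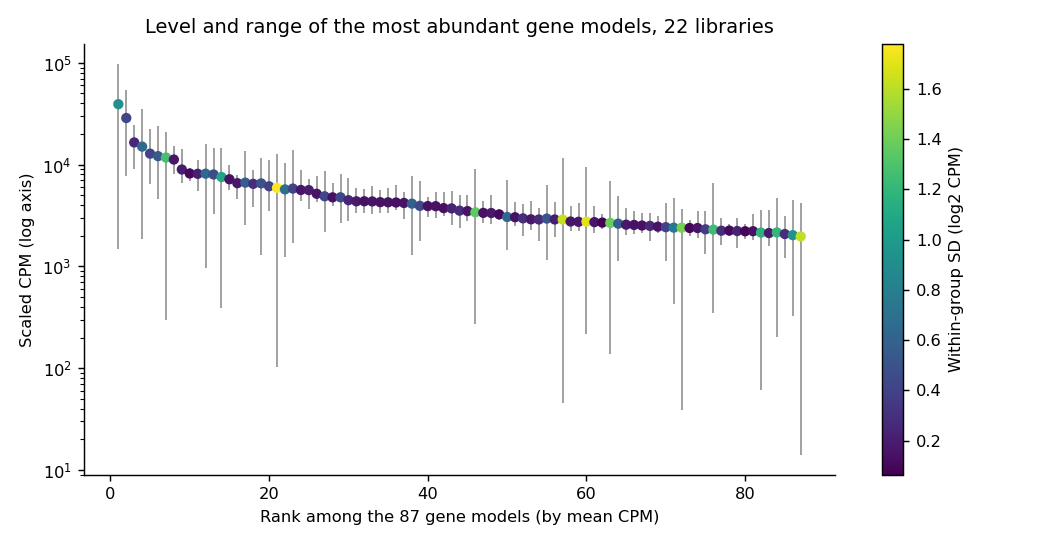
The 87 members by mean CPM over 22 libraries, on a log axis, with the lowest and highest library of each. The first member averages 37966 CPM and the last 2006 CPM, and the length of the bars differs widely between members of like mean.

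Of the 9 members whose ID stands on more than 1 row, 2 were the rows KZS14154_1 (11301 CPM) and KZS14154_2 (4380 CPM) of the same ID. Reads of near-identical rows may have been divided by the counting, so these levels are uncertain. The deviations of those rows from their group means were unrelated (r = -0.05 over 22 libraries). The second row of KZS04749 had 1700 CPM, below the threshold, while the second row of KZS16921 had 0.0605 CPM.

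Not every member was abundant in every female. In all 22 libraries, 44 members were at 2000 CPM or more, and 65 had a group mean of at least 2000 CPM in each of the 8 groups. The same threshold on the control libraries alone gave 87 rows, of which 84 were members, and on the CR libraries alone 96 rows, of which 84 were members. On the BHB libraries alone it gave 84 rows (78 members) and on the NMN libraries alone 89 rows (85 members).

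The members' share of counts was lower in the CR and NMN libraries than in the control and BHB libraries. In control it ran from 45.3% to 49.9% with a median of 47.3% (mean 47.2% ± 1.78, n = 6), and in CR from 37.7% to 45.9% with a median of 43.0% (mean 42.5% ± 2.73, n = 6). In BHB it ran from 44.5% to 53.3% with a median of 46.8% (mean 47.7% ± 3.25, n = 6), and in NMN from 40.9% to 45.2% with a median of 45.0% (mean 44.0% ± 2.07, n = 4). Control and CR overlapped at the edge, since the highest CR library lay above the lowest control. The clones had like shares, with 45.9% ± 3.80 in GB and 45.1% ± 2.81 in IL (n = 11 each). Without KZS03189 the other 86 held 42.2% ± 1.98 of the control counts and 41.4% ± 2.33 of the CR counts. They held 41.3% ± 2.11 under BHB and 42.0% ± 1.87 under NMN, and the treatment means then lay within 1 SD of each other. The totals still held the reads of KZS03189, so where it falls the share of the others rises. These values therefore do not show how much of the difference between treatments rests on KZS03189.

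**Figure D2:**
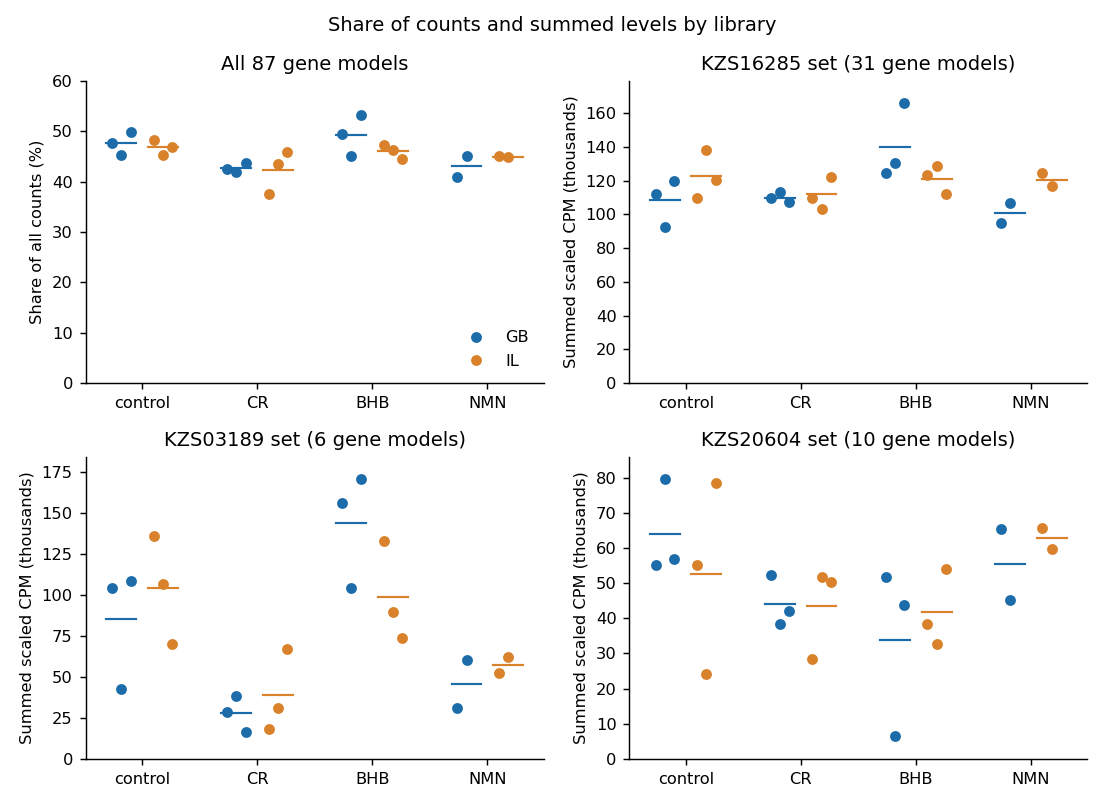
Share of all counts, in percent, held by the 87 members in each of the 22 libraries, by treatment and clone. CR libraries lie between 37.7% and 45.9% and control libraries between 45.3% and 49.9%.

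The remaining values are scaled CPM, in which the library total is corrected for composition by the TMM method. From one female to another of the same group, the members fell into steady and widely varying ones. The SD of log2 CPM within groups had a median of 0.25 over the members and 0.35 over the other gene models tested. It was under 0.2 in 39 members (44.8%, against 28.4% of the others) and at least 1 in 12 (13.8%, against 5.84%). Members and others were not matched for count level, and sampling noise adds more to this SD at low counts. How much of these differences goes with count level was not tested. The steadiest, KZS10465, stayed between 2337 and 3257 scaled CPM in all 22 libraries (SD 0.065 on the log2 scale). The most variable within groups was KZS15119 (SD 1.78), which ran from 104 to 12806 scaled CPM. Between its highest and its lowest library a member differed less than 2-fold in 40 cases and at least 10-fold in 17. In 3 members the difference was at least 100-fold, and these were KZS15119, KZS14505_1 and KZS10162, the last at 13.9 scaled CPM in a single IL control female and at 679 or more in every other library.

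The members did not vary one by one. Deviations from the group means were correlated over the 22 libraries for each of the 3741 pairs of members, a description without a test, since all pairs share libraries and scaling. The median r was 0.12, yet r was above 0.9 in 230 pairs and below -0.7 in 25. Joining members at an average r of 0.5 gave 9 sets of at least 3 that held 76 of the 87. These sets were read off the same values and are named by their most abundant member.

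**Figure D3:**
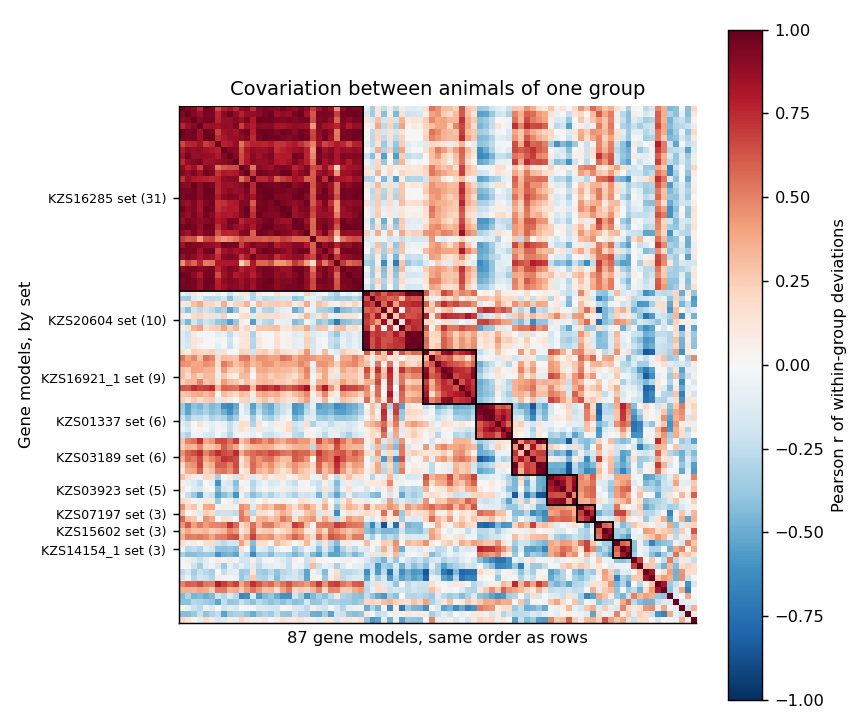
Pearson r between members of the deviations of log2 CPM from the group mean (22 libraries), with the 87 members in the order of the sets. Blocks of high r along the diagonal are the sets, the widest being the 31 members led by KZS16285.

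The largest set was also among the steadiest. Its 31 members, led by KZS16285, had a median r of 0.89 with each other and held 11.7% ± 1.28 of all counts. Their summed level ran from 92638 scaled CPM in a GB control female to 165762 in a GB BHB female, less than 2-fold.

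A set of 10 led by KZS20604 was among the most variable, with a sum from 6442 to 79608 scaled CPM, both extremes being GB females. KZS20604 was at 12372, 16336 and 10974 in GB control, and at 13190.2, 294 and 8843 in GB BHB. The second of these GB BHB females was low in the set as a whole, with KZS13467 at 391, KZS15119 at 104 and KZS11462 at 39.1 scaled CPM. KZS13467 and KZS20604 deviated almost alike (r = 0.989). Over the 6 BHB libraries the sum of the set averaged 37844 scaled CPM, and without that female 44124. Control averaged 58238, CR 43858 and NMN 59082.

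A set of 6 led by KZS03189 held 7.54% ± 4.09 of all counts, the widest range in absolute terms. Its sum ran from 16299 scaled CPM in a GB CR female to 170727 in a GB BHB female. The set also held KZS21034, KZS21012, KZS18537, KZS01455 and KZS18361, and KZS21034 and KZS21012 had an r of 0.989. The lowest r of all pairs was between KZS03189 and KZS17544 (r = -0.87). Sets led by KZS16921_1 (9 members, 7.34% of counts), KZS03923 (5 members, 2.71%) and KZS01337 (6 members, 1.82%) followed, and the other 3 sets had 3 members each. Among the pairs of members with accession numbers at most 7 apart, none shared a set, while KZS21012 and KZS21034 stand farther apart and did. The consecutive accessions KZS15602 and KZS15603 had an r of 0.62, and KZS21414 and KZS21418, which are 4 apart, had an r of -0.29.

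With CR the members moved in both directions, and a few very abundant ones fell. In the edgeR quasi-likelihood fit over all 22 libraries, 7 of 87 members passed an adjusted p of 0.05 (Benjamini-Hochberg over all gene models), 6 lower and 1 higher. This is 8.05% of the members, against 3.36% of all gene models tested (2.05% higher, 1.31% lower). Of the 6 lower, 4 belong to the set led by KZS03189, whose members vary together, so the 7 are not separate observations. Log2 fold changes were negative for 56 members and positive for 31, with a median of -0.05. Scaling by column totals in place of TMM shifted the median of all gene models in CR to 0.16 on the log2 scale. Of the members, 62 were then positive and 25 negative, with 6 called higher and 6 lower. The share of all gene models called in that fit is not given here, so these counts do not set the members apart from other gene models. The typical size of change with CR was not larger in the members, with a median absolute log2 fold change of 0.15 against 0.20 over all gene models. The median SE was also smaller in the members, at 0.15 against 0.22, and it was smaller in the BHB, NMN and clone comparisons too. How much of the differences in size and in calls goes with this was not tested. CR libraries have library numbers of 17 and above and no other group does, so diet and library number cannot be told apart by design. With library number as a term, no member passed in this comparison. The estimates of the 6 falls were then between -1.40 and -1.89 (adjusted p from 0.247 to 0.671, edgeR). The estimate of the 1 rise, KZS07197, was 0.01. Since no other group shares the CR numbers, this fit cannot separate diet from library number.

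KZS03189, the most abundant member, was the largest of the called falls. It was at 59132, 20652 and 65245 scaled CPM in GB control females and at 6048, 11516 and 1476 in GB CR females. In IL it was at 85434, 56752 and 27893 in control and at 6038, 8966 and 32642 in CR. In 5 of 6 CR females it lay below every control of the clone, and the exception was the third IL female. The mean was 52518 ± 24203 in control and 11114 ± 11068 in CR, a log2 fold change of -2.28 ± 0.53 (SE, adjusted p = 0.0213, edgeR). The call was lost without the first IL control (adjusted p = 0.0540) or without the first GB CR female (0.0607).

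KZS19569 was at 10164, 11592 and 11143 scaled CPM in GB control and at 1830.1, 2077 and 1292 in GB CR females. In IL it was at 7348, 6231 and 9409 in control and at 3005, 6302 and 5525 in CR, where the groups overlapped by 1 female. The log2 fold change was -1.56 ± 0.36 (adjusted p = 0.0186, edgeR), and it was -2.66 within GB (adjusted p = 0.0033) and -0.63 within IL. The call over both clones was lost without the first (adjusted p = 0.0598) or second (0.0511) GB CR female.

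KZS16921_1, the second most abundant member, had 33002, 51689 and 53673 scaled CPM in GB control and 16053, 14950.1 and 19595 in GB CR females. In IL it had 35280.4, 24886 and 29459 in control and 7739, 13582 and 23746 in CR. All 6 CR females lay below every control of their clone. The log2 fold change was -1.22 ± 0.22 (adjusted p = 0.0036, edgeR), and the call held with any single library left out.

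KZS21034 and KZS21012, which vary together, also lay below every control of their clone in all 6 CR females. KZS21034 fell from 17295 ± 3615 scaled CPM in control to 6465 ± 4169 in CR, a log2 fold change of -1.42 ± 0.34 (adjusted p = 0.0235, edgeR). KZS21012 fell from 9498 ± 2420 to 3471 ± 2317, with a log2 fold change of -1.47 ± 0.34 (adjusted p = 0.0185). The call of KZS21012 held with any single library left out. It was lost with no low-count filter (adjusted p = 0.0531, edgeR) and with the control and CR libraries alone (0.0906). The call of KZS21034 was lost without the first GB control (adjusted p = 0.0505), the first GB CR female (0.0626) or the second IL CR female (0.0578). KZS18537, of the same set, was at 5269.8, 3985 and 6613 in GB control and at 1973, 2806 and 1704 in GB CR. In IL it was at 9389.6, 13990.5 and 8507 in control and at 2916, 2764 and 3984 in CR, and the groups did not overlap in either clone. Its log2 fold change was -1.51 ± 0.25 (adjusted p = 0.0018, edgeR), the smallest p of the members. The other 2 of the 6 in the set led by KZS03189 did not pass, KZS01455 with 0.64 ± 0.41 and KZS18361 with 0.11 ± 0.67.

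KZS07197, the third most abundant member, was the only one called higher. It had 11779, 15511 and 15101 scaled CPM in GB control and 19548, 17286 and 24365 in GB CR females, and 9076, 14079 and 16976 in IL control and 22248, 20619 and 19152 in IL CR females. All 6 CR females lay above every control of their clone. The log2 fold change was 0.58 ± 0.16 (adjusted p = 0.0468, edgeR), close to the threshold, and the call was lost in 18 of the 22 fits that left out a single library. With library number as a term its log2 fold change was 0.01. It was lost also with median-ratio size factors, and with TMM factors computed without the members, which each called 6 members lower and none higher.

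**Figure D4:**
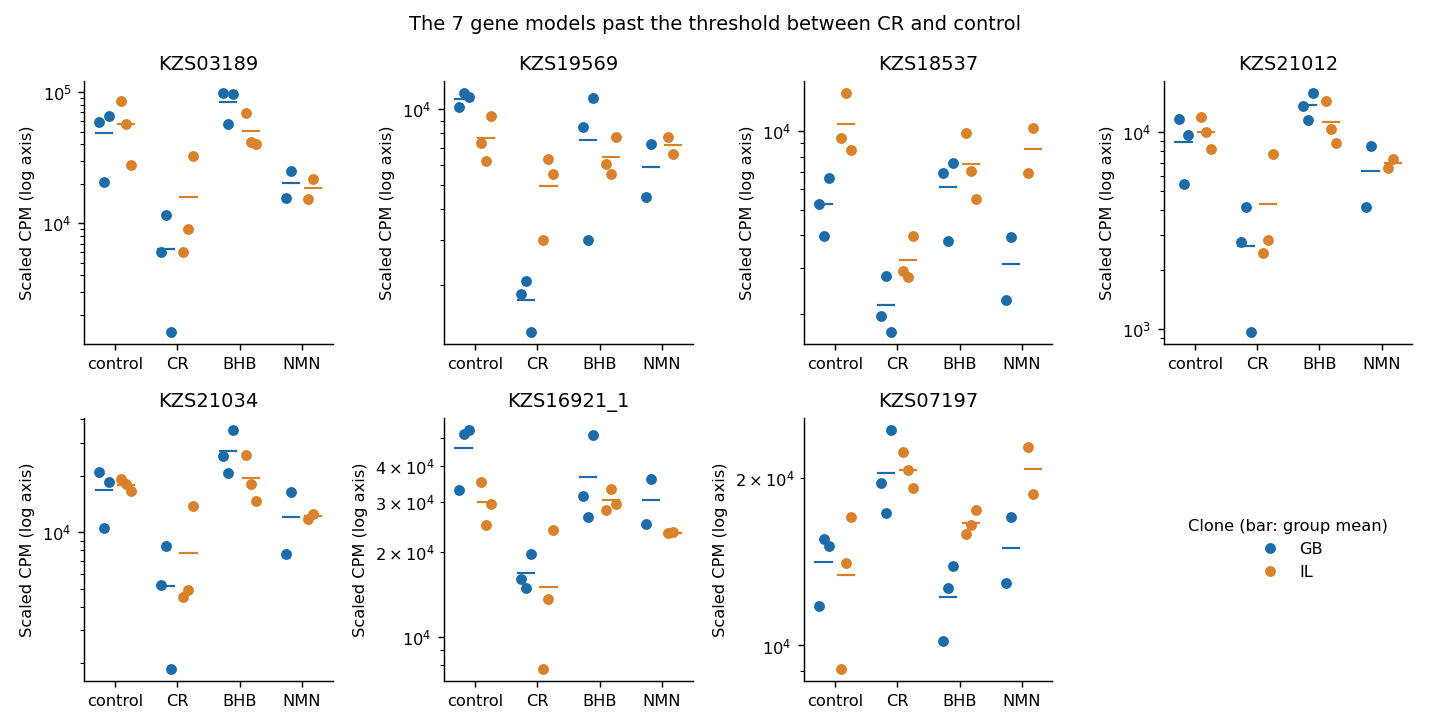
Scaled CPM of the 7 members called in CR, on a log axis, in each of the 22 libraries by treatment and clone. For KZS03189, CR females lie between 1476 and 32642 and controls between 20652 and 85434.

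Set by set, CR values differed in direction. In the set led by KZS16921_1 all 9 members had a negative log2 fold change over both clones (median -0.36, and 8 of 9 negative by column totals), and 1 was called. Taken by clone, all 9 were negative in GB (median -1.04, 3 called), while in IL 7 were positive and 2 negative (median 0.14, none called). The difference between the clones called none of the 9, with a smallest adjusted p of 0.125 (edgeR). In the set led by KZS03923 all 5 were positive (median 0.42, and all 5 also by column totals) and none was called, the smallest adjusted p being 0.0624 for KZS17544 with 0.39 ± 0.11. The 31 members led by KZS16285 had a median of -0.05, which turned to 0.11 by column totals, and none was called. Their median was 0.03 in GB and -0.12 in IL. The largest change of any member was that of KZS14505_1, at -2.51 ± 0.91, which did not pass (adjusted p = 0.148). Its CR females ranged from 290.2 to 3916 scaled CPM and its control females from 909 to 11726.

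Taken clone by clone, 5 members (5.75%) were called lower with CR in GB, where 1.03% of all gene models were called (0.604% lower and 0.423% higher). In IL 1 member (1.15%) was called lower, where 1.23% of all gene models were called (0.383% lower and 0.846% higher). In GB these were KZS03251 (-1.75), KZS13265 (-1.47), KZS16921_1 (-1.45), KZS19569 (-2.66) and KZS21268 (-1.02), and in IL it was KZS18537 (-1.72), all log2 fold changes. These calls took their spread from all 22 libraries. With each clone fitted alone, KZS16921_1 in GB (adjusted p = 0.0729, edgeR) and KZS18537 in IL (0.0647) did not pass. The difference between the clones was itself tested and no member passed (0% of all gene models). At an unadjusted p under 0.05 edgeR had 7 of the 87 members, of 411 gene models among the 4965, and DESeq2 called 3 members. The share of all gene models called by DESeq2 is not given here. The smallest adjusted p was that of KZS21268 (0.125), which had a log2 fold change of -1.02 in GB and 0.48 in IL.

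No member was called with BHB, where 0% of all gene models were called. At an unadjusted p under 0.05 edgeR had 1 member, of 151 gene models, and DESeq2 called no member. KZS07012 had the smallest p of the members, at 0.23 ± 0.11 (adjusted p = 0.999), with 4177 ± 530.4 scaled CPM in control and 4902 ± 661 in BHB. The smallest p among the falls was that of KZS13265, at -0.48 ± 0.25 (adjusted p = 0.999). The median absolute log2 fold change was 0.17 over the members, larger than the 0.12 over all gene models.

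The 31 members led by KZS16285 were all on the higher side with BHB, by a median of 0.18 on the log2 scale, and none passed. The sign was the same for all 31 by column totals and by median-ratio size factors. Since they vary together these are not 31 separate observations. Their sum was 108293 scaled CPM in GB control and 140225 in GB BHB, with a median log2 fold change of 0.37 in GB. In IL the sum was 122584 in control and 121268 in BHB, with a median log2 fold change of -0.02. The sums of the GB BHB females were 124243, 130670 and 165762, and those of the GB controls ran from 92638 to 119974. Within GB, 29 of the 87 members had an unadjusted edgeR p under 0.05 with BHB, of 403 gene models among the 4965, and none passed the adjustment. Of these 29, 28 belonged to the set led by KZS16285, so they are largely 1 shared change and not a trait of the 87. The clone difference of the BHB change was tested and called no member (0% of all gene models), nor did DESeq2 call any. In edgeR 8 members had an unadjusted p under 0.05, of 377 gene models. The set led by KZS20604 leaned the other way, with all 10 members lower with BHB (median -0.62) and none called. The sign was the same for all 10 by column totals and by median-ratio size factors. In GB all 10 were lower (median -1.02), and in IL 8 were lower and 2 higher (median -0.22). The second GB BHB female was low in this set, and these are not 10 separate observations.

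No member was called with NMN either, again with 0% of all gene models called. In edgeR 1 member had an unadjusted p under 0.05, of 256 gene models, and DESeq2 called no member. KZS03189 had 15567 and 25101 scaled CPM in GB NMN females and 15389 and 21919 in IL NMN females. In 3 of the 4 it lay below every control of the clone, and the remaining GB female lay among the controls. The log2 fold change was -1.42 ± 0.59 (adjusted p = 0.937, edgeR). KZS07197 had the smallest p among the rises, at 0.36 ± 0.17 (adjusted p = 0.937). The median absolute log2 fold change was 0.09 over the members against 0.15 over all gene models. The clone difference of the NMN change called no member (0% of all gene models), nor did DESeq2 call any. In edgeR 1 member had an unadjusted p under 0.05, of 154 gene models.

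**Figure D5:**
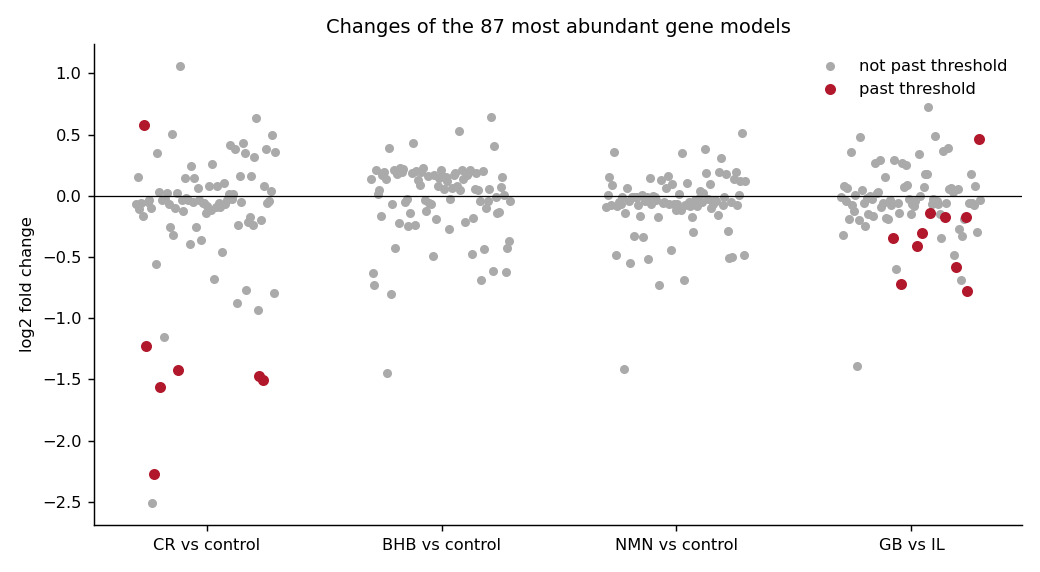
Log2 fold change of each of the 87 members for CR, BHB and NMN against control and for GB against IL, with called members marked. CR has 7 called members and the clone comparison 10, BHB and NMN none.

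Set directly against CR, BHB females had 5 members called, all higher than in CR (5.75% of the members, against 3.02% of all gene models, 1.33% higher and 1.69% lower). By column totals 5 were called higher and 4 lower, and the share of all gene models called in that fit is not given here. Of the 5 called, 4 belong to the set led by KZS03189, whose members vary together. The median absolute log2 difference was 0.24 over the members and 0.19 over all gene models. The comparison uses the same CR libraries as that with control, so the values stand side by side and add no separate evidence. KZS03189 averaged 67312 ± 25860 scaled CPM in BHB, a log2 difference of 2.66 ± 0.55 from CR (adjusted p = 0.0133, edgeR). KZS21012 differed by 1.88 ± 0.34, KZS21034 by 1.86 ± 0.35, KZS18537 by 1.37 ± 0.25 and KZS16921_1 by 1.06 ± 0.22. These 5 calls were kept with any single library left out, and all were lost with library number as a term. All were lost also with the GB or the IL libraries fitted alone. With the BHB and CR libraries alone the call of KZS03189 was lost (adjusted p = 0.0586, edgeR). Between NMN and CR no member was called (0.443% of all gene models). With an unadjusted edgeR p under 0.05 there were 7 of the 87 members, of 488 gene models among the 4965. DESeq2 called 2 members, and the share of all gene models it called is not given here. The median absolute log2 difference between NMN and CR was 0.09 over the members and 0.18 over all gene models.

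The members were called between the clones in a smaller share than all gene models. At equal treatment 10 of 87 were called (11.5%, against 44.3% of all gene models), 9 lower and 1 higher in GB (22.4% of all gene models were higher and 21.9% lower). By column totals 7 were lower and 4 higher, and the share of all gene models called in that fit is not given here. The median absolute log2 difference was 0.15 over the members and 0.31 over all gene models.

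KZS18537 was lower in GB, at 4258 ± 2067 scaled CPM against 7373 ± 3461 in IL (n = 11 each). Its log2 difference was -0.78 ± 0.18 (adjusted p = 0.0013, edgeR). KZS01337 had 3149 ± 1239 in GB and 5121 ± 1320 in IL, a difference of -0.72 ± 0.21 (adjusted p = 0.0093). For both the ranges of the clones overlapped, and both calls held with any single library left out. KZS15603 (-0.58, adjusted p = 0.0023) was the next of the members lower in GB, and the other 6 differed by 0.41 or less on the log2 scale. Of these, the call of KZS07044_1 (-0.14, adjusted p = 0.0383) was lost in 9 of the 22 fits that left out a single library. The steady KZS10465 was among them, with a difference of -0.17 (adjusted p = 0.0051).

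KZS03319 was the only member called higher in GB, at 9425 ± 3859 scaled CPM against 6579 ± 1548 in IL. The ranges overlapped, and the log2 difference of 0.46 ± 0.18 (adjusted p = 0.0439, edgeR) was lost in 15 of the 22 fits that left out a single library. It belongs to the set led by KZS16921_1, of which 8 of 9 members had a positive log2 difference (median 0.29) and the others did not pass.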

How the data were processed

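RNA was sequenced from 22 libraries, each of 1 female, with a directional kit per the labels' protocols. The deposited table holds raw read counts per gene model. Tools listed in the submitters' processing notes are STAR, DESeq2, FastQC and version 0.4.5 of Trim Galore. The build, annotation and counting tool were not given in the sources used here. Title letters gave the groups, with L read as CR by elimination. Each female is 1 replicate, and p-values measure the spread between these females. Libraries of a group always differed by more than sampling noise, with a chi-square of at least 43.2 per degree of freedom. No ID matched RefSeq's gene table (assembly GCF_020631705.1).

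The members, the sets and the gene models named were chosen with earlier results of these data known. Named were the 10 most abundant members, the members next to the threshold, those with consecutive accessions, and in each comparison the called members with the 2 largest rises and 2 largest falls, or the smallest p where none passed. Others, such as KZS21012, KZS10465, KZS15119, KZS14505_1, KZS17544 and KZS21268, were singled out after their values were seen.

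CPM for the rule and the shares were computed from the counts and the column totals. All rows were then filtered with filterByExpr of edgeR 4.0.16 on the 8 groups (minimum count 10, minimum total 15), which left 4965, scaled by TMM and tested with the robust quasi-likelihood F test in R 4.3.3 with terms for clone and treatment. Interactions and changes within a clone came from 8 group means. Adjustment was by Benjamini-Hochberg over all 4965, with a threshold of 0.05. Standard errors were the log2 change over the root of its F value. Log2 CPM used a prior count of 2, and deviations have 14 residual degrees of freedom. The fit was also run on simulated counts in which gene models varied independently. The members here vary together, so that run does not vouch for their calls. Alternatives were DESeq2 1.42.0, other scalings and filters, an adjusted p of 0.1, a replicate block, library number as a term, fewer groups, each clone alone, summed rows of an ID and each library left out. Depth was 8503141 to 14353733 counts, and it limits the members least.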

Additional observations from a re-analysis of the deposited data

Results flagged for a closer look

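The members' share, each named member and the sum of each set were examined in each treatment, which made 136 combinations. In each, the highest or lowest of the 4 or 6 females was tested for a gap to the others, and 10 stood apart. Chance alone sets apart about 1 in 20 combinations, and females of both clones are mixed in each. The same females recur throughout and set sums include named members, so the 10 are not separate observations.

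Among single members, KZS03189 in CR had 32642 scaled CPM in the third IL female, against 11516 in the next. KZS16921_1 had 51454 in the third GB BHB female, against 33165 in the next, and 35955 in the third GB NMN female, against 24919. KZS03319 had 14479 in the third GB BHB female, against 9109. KZS21418 had 5166 in the first GB NMN female, against 7128 in the nearest other.

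Among sums, the members' share of all counts was 40.9% in the first GB NMN female, against 44.9% in the nearest other. The third GB BHB female had 165762 scaled CPM in the set led by KZS16285, against 130669.9 in the next, and 128459 in the set led by KZS16921_1, against 83537. The set led by KZS01337 reached 29795.5 in the first IL CR female, against 16333. The set led by KZS15602 reached 8963 in the second IL NMN female, against 6101. The third GB BHB female accounts for 4 of the 10, and its part in the BHB values was not tested beyond leaving it out, which called no member with BHB.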

How the results depend on the processing

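Each of the 26 changes of members named for a comparison kept its sign under every alternative run, while small changes of other members did not, as in CR by column totals. BHB, NMN and their differences between clones called no member under each one run. In CR, where 7 members were called, DESeq2 called 15, column totals 12, no filter 3, an adjusted p of 0.1 gave 11, the compared groups alone 2, GB alone 2, IL alone 0 and library number as a term 0. Leaving out single libraries gave 3 to 10, with 3 without the first GB CR female. The compared groups alone lost the CR calls of KZS03189, KZS19569, KZS21034, KZS21012 and KZS07197 (adjusted p from 0.0561 to 0.0934, edgeR). For BHB against CR, with 5 called, DESeq2 gave 12, column totals 9 (5 higher and 4 lower), an adjusted p of 0.1 gave 11, the compared groups alone 8, GB alone 0, IL alone 0 and library number 0, and leaving out single libraries 5 to 7. For NMN against CR, with 0 called, DESeq2 gave 2, an adjusted p of 0.1 gave 2, the compared groups alone 1, and leaving out single libraries 0 to 1 (1 without the third IL CR female). For clone, with 10 called, 18 passed an adjusted p of 0.1, and leaving out single libraries gave 8 to 14. For the clone difference in CR, with 0 called, DESeq2 gave 3, no filter 1, the replicate block 1 and leaving out single libraries 0 to 1. The causes were not tested. The share of all gene models called under each alternative is not given here. These counts therefore do not show whether an alternative changed the members more than other gene models. Shares with single libraries left out ran from 46.7% to 47.6% in control, 41.9% to 43.5% in CR, 46.6% to 48.3% in BHB and 43.6% to 45.0% in NMN, and without KZS03189 they were 42.2% in control and 41.3% in BHB.

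The title numbers were not shown to pair the females: 8 of 30 same-numbered pairs had deviations with r above 0.1, and the median r was 0.02. With the replicate block 6 members were called in CR, without KZS03189 (adjusted p = 0.0548) and KZS21034 (0.0523).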
